A study of Caenorhabditis elegans with 40 samples.

Results

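The genes described are 10 genes of *C. elegans* that place histone H3 lysine 9 (H3K9) methylation, bind it, or hold chromatin at the nuclear periphery: *met-2*, *set-25*, *set-32*, *hpl-1*, *hpl-2*, *lin-61*, *cec-4*, *lem-2*, *emr-1* and *lmn-1*. They were chosen by name, as genes of these processes, with earlier results of these data known, and all 10 were found among the 19934 genes of the annotation. RNA-seq libraries of 40 samples of entire L3 larvae, in 12 groups and 4 batches named in the labels, gave their transcript levels. In batch 1, DPY-26 cleavage (*dpy-26(ubs4)*), KLE-2 cleavage (*kle-2(ubs14)*) and SCC-1 cleavage (*scc-1(ubs19)*) were set beside a TEV control, with 4 samples each. In batch 2, COH-1 cleavage (*coh-1(ubs26)*) and SCC-1 COH-1 cleavage (*scc-1(ubs19)* with *coh-1(ubs26)*) were set beside a second TEV control, with 3 samples each. Batch 3 held 3 samples each of DPY-26 cleavage with degradation of SDC-3 (*dpy-26(ubs4)*, *sdc-3(ubs20)* and *xeSi376*), of a TEV TIR1 control (*xeSi376*) and of a TEV control without TIR1, all on plates with 1 mM auxin. Batch 4 held 3 samples each of SDC-3 degron animals (*sdc-3(ubs20)* and *xeSi376*) with auxin, and of the same strain without auxin on ethanol plates.

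All 12 groups, controls included, carry *ubsSi20*, in which the heat shock promoter *hsp-16.2p* drives the TEV protease, and all were heat-shocked. The alleles *ubs4*, *ubs14*, *ubs19* and *ubs26* insert a FLAG tag and a site that the protease cuts into a kleisin, the subunit that closes the ring of a condensin or cohesin complex. The allele *ubs20* adds an auxin-inducible degron to SDC-3, and *xeSi376* makes the TIR1 protein that degrades it, under the *eft-3p* promoter. DPY-26 is the kleisin of condensin I and of condensin I-DC, the dosage compensation condensin of the X chromosome. KLE-2 is the kleisin of condensin II, SCC-1 and COH-1 are kleisins of cohesin, and SDC-3 takes part in the recruitment of the dosage compensation complex to X. The animals were shocked at 34 °C for 30 min, 3 h after L1 larvae were seeded at 22 °C, and were grown on for 19 h. Where a group and its control are different strains, each is a single strain, so that cleavage and other differences between strains cannot be told apart. The SDC-3 degron animals with and without auxin are the same strain. There, loss of SDC-3 and other effects of the auxin treatment cannot be told apart. No batch held a strain without the degron both with and without auxin.

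Methylated H3K9 marks silent chromatin, which in *C. elegans* is enriched on the chromosome arms and lies against the nuclear envelope. The methyltransferase MET-2, related to SETDB1, places mono- and dimethylation, and SET-25 can add trimethylation. SET-32 is a further SET-domain protein known from heritable silencing in the germline. The heterochromatin protein 1 homologs HPL-1 and HPL-2 and the MBT-repeat protein LIN-61 bind chromatin with this mark. The chromodomain protein CEC-4 anchors such chromatin to the nuclear envelope in embryos. LEM-2 and EMR-1 (emerin) are LEM-domain proteins of the inner nuclear membrane, and LMN-1 is the worm's lamin, the filament protein that lines it.

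In the WBcel235 annotation, *lmn-1* (WBGene00003052) lies at chrI:8763041-8765631, *emr-1* (WBGene00001309) at chrI:1842445-1843227, *set-32* (WBGene00008062) at chrI:9519244-9521275 and *lin-61* (WBGene00003041) at chrI:7248827-7251282. The *lem-2* gene (WBGene00002275) lies at chrII:14063450-14066646. On chromosome III are *met-2* (WBGene00019883, chrIII:8375300-8380848), *set-25* (WBGene00012802, chrIII:13283824-13293090) and *hpl-2* (WBGene00001996, chrIII:10752195-10755530). The *cec-4* gene (WBGene00017990) lies at chrIV:7575718-7577326. Of the 10 genes, *hpl-1* (WBGene00001995) is the only one on X, at chrX:13245390-13247044. The *set-25* locus overlaps *unc-64*, *F56A8.8* and the piRNA gene *21ur-12617* on the other strand, and *cec-4* overlaps *F32E10.5* on the other strand. Whether the counting used strand is not given in the sources used here. The overlaps were read from gene starts and ends, and whether transcripts share sequence was not examined. Reads from any shared sequence may therefore have been assigned to the wrong gene.

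Libraries held 20460404 to 88427247 reads, with a median of 38087560. The targeted genes served as a check of the labels, although cleavage and degradation act on the protein and need not change the mRNA. The *dpy-26* transcript fell by 0.69 on the log2 scale in DPY-26 cleavage and by 0.72 in DPY-26 cleavage with SDC-3 degradation, *kle-2* fell by 0.68 in KLE-2 cleavage, and *scc-1* fell by 0.71 in SCC-1 COH-1 cleavage (adjusted p between 0.00114 and 0.0327). The values of *scc-1* in SCC-1 cleavage, *coh-1* in COH-1 cleavage and *sdc-3* with auxin were -0.35, -0.23 and 0.15, with adjusted p of 0.0625, 0.860 and 0.507. Replicate 3 of KLE-2 cleavage stood apart from its group. Its *cec-4* level was 2.36 CPM (read counts scaled to library size), against 12.8 to 14.7 CPM in the other 3 replicates, and its *lem-2* level was 62.5 CPM, against 32.5 to 37.8 CPM. Replicate 3 of SDC-3 degron without auxin also stood apart, with 10.01 CPM of *lin-61*, against 19.7 and 20.8 CPM, and 48.9 CPM of *emr-1*, against 25.8 and 25.5 CPM. The count of all genes called was 332 without that KLE-2 cleavage library, in place of 168, and 1233 without that library without auxin, in place of 173. Replicate 1 of every group in batches 2 and 3 differed from replicates 2 and 3 in length-scaled levels, as described for *met-2* and *hpl-2*.

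The 10 genes spanned a wide range of levels. Compared as TPM, an abundance scaled for transcript length and library size, *lmn-1* was highest, with a median of 74.1 TPM over 40 samples and a range of 57.7 to 153.6 TPM. The median of *lmn-1* lay above 91.9% of expressed genes. The LEM-domain gene *emr-1* had a median of 36.3 TPM and *hpl-2* of 28.2 TPM, and *lmn-1* was above *emr-1*, and *emr-1* above *hpl-2*, in all 40 samples. The next 5 medians were close to each other: 11.1 TPM for *lem-2*, 10.3 TPM for *lin-61*, 8.69 TPM for *cec-4*, 8.49 TPM for *hpl-1* and 8.19 TPM for *met-2*. The *hpl-2* level was above that of *lem-2* in 39 samples. The order within these 5 was less steady, with *lem-2* above *lin-61* in 28 samples, *lin-61* above *cec-4* in 37, *cec-4* above *hpl-1* in 31 and *hpl-1* above *met-2* in 17 of 40. The methyltransferase genes *set-25* and *set-32* were the lowest, with medians of 2.61 and 1.81 TPM, and *set-25* was above *set-32* in 35 samples. The *set-32* gene had between 45 and 260 reads in a sample, so that its values are the least precise of the 10. The range over samples was widest for *cec-4*, at 13.1-fold, because of the low library of KLE-2 cleavage.

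**Figure D1:**
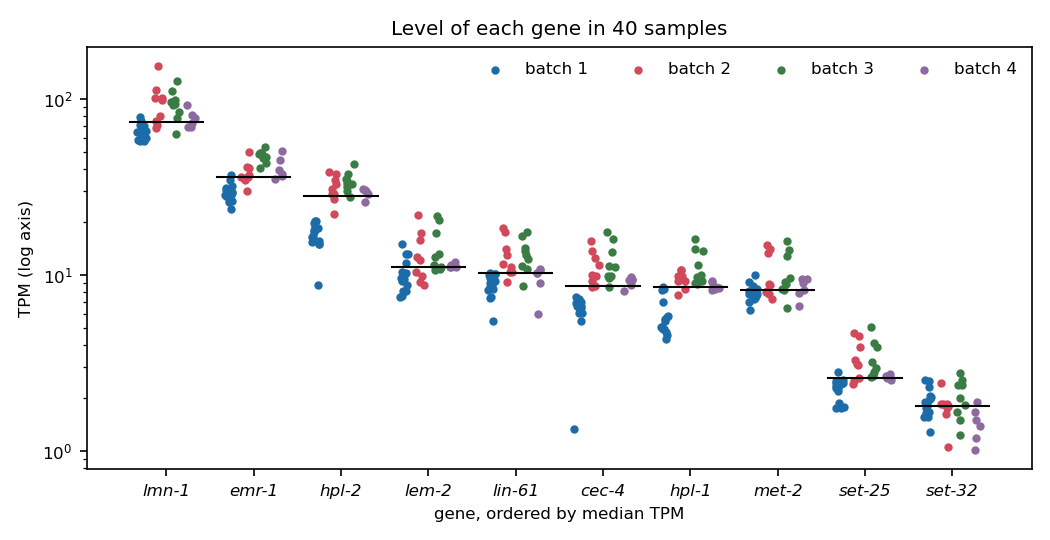
Level of each of the 10 genes in the 40 samples, in TPM on a log axis, with points coloured by batch and a black line at the median. The medians run from 74.1 TPM for *lmn-1* to 1.81 TPM for *set-32*, and the lowest *cec-4* point, at 1.34 TPM, is replicate 3 of KLE-2 cleavage.

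The scale mattered for the comparison of samples. For *met-2* the TPM of the 3 replicates of SCC-1 COH-1 cleavage, COH-1 cleavage and the TEV control of batch 2 was higher in replicate 1 than in replicates 2 and 3, for instance 14.8, 8.11 and 8.73 TPM after COH-1 cleavage and 13.4, 7.26 and 7.97 TPM in the TEV control. In CPM scaled within the batch, the same TEV control samples had 48.0, 46.4 and 45.7 CPM of *met-2*. Genes were therefore compared with each other in TPM, and samples with each other in CPM, apart from the sums of marker genes.

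To assess whether loss of a condensin, of cohesin or of SDC-3 changed these genes, each group was compared with the control of its own batch, and a gene was called at an adjusted p under 0.05 over all genes tested. Of 70 values (10 genes in 7 comparisons), 5 were called, on 4 genes, and 67 were under 0.5 in size on the log2 scale. The log2 fold changes lay between -0.50 and 0.75. The HP1 gene *hpl-1* rose after DPY-26 cleavage, alone and with SDC-3 degradation, and *lem-2* rose after SCC-1 cleavage. The *emr-1* gene fell after SCC-1 COH-1 cleavage, and *hpl-2* fell slightly after DPY-26 cleavage. Nothing was called for *met-2*, *set-25*, *set-32*, *lin-61*, *cec-4* or *lmn-1*. The comparisons of a batch share their control samples. In entire animals, fewer cells of a type and less RNA per cell cannot be told apart, and p-values measure the spread between these samples. The study's text calls the replicates of COH-1 cleavage biological replicate batches, while the labels do not say for any group whether replicates are separate cultures.

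**Figure D2:**
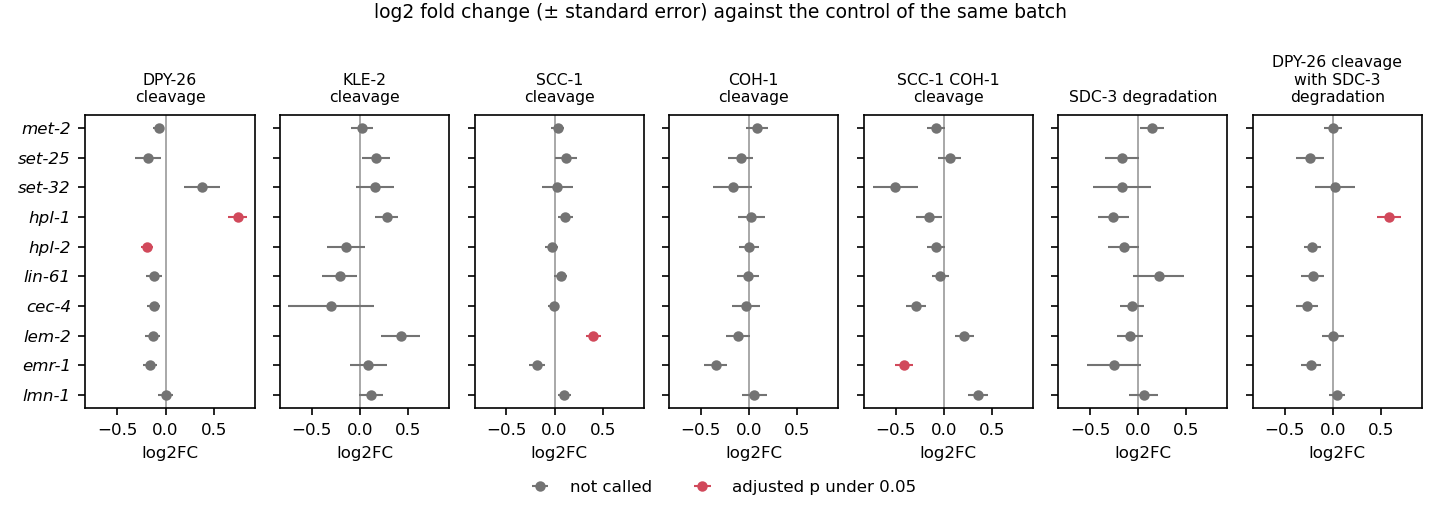
Log2 fold change of each gene against the control of the same batch (points) with its standard error (bars), 1 panel per comparison, in which red marks an adjusted p under 0.05. The red points are *hpl-1* at 0.75 and 0.58, *lem-2* at 0.40, *emr-1* at -0.41 and *hpl-2* at -0.19.

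The share of all tested genes that were called sets the background for these counts. After DPY-26 cleavage 1 of the 10 genes rose and 1 fell, where 15.5% of all 14340 genes tested rose and 11.9% fell. With scaling factors from autosomal genes alone the split of all called genes was 2575 higher and 790 lower, in place of 2226 and 1712. After SCC-1 cleavage 1 of the 10 genes rose and 0 fell, where 14.4% of all genes rose and 14.6% fell. After SCC-1 COH-1 cleavage 0 rose and 1 fell, where 10.3% rose and 11% fell. After DPY-26 cleavage with SDC-3 degradation 1 rose and 0 fell, where 11.2% rose and 3.46% fell. These counts are too small to set the 10 genes apart from the shares of all genes.

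The remaining comparisons called 0 of the 10 genes with edgeR, and DESeq2 also called 0. Of all genes, 0.419% rose and 0.754% fell after KLE-2 cleavage, where *hpl-1* alone had an unadjusted p under 0.05. After COH-1 cleavage 0.00719% rose and 0% fell (1 gene, with 872 at an unadjusted p under 0.05). With the replicate number as a block, which pairs these samples, 9 genes were called, and DESeq2 without a block called 120. Of the 10 genes 1, *emr-1*, had an unadjusted p under 0.05 in the fit without a block. The study reported many more genes changed after COH-1 cleavage, both up and down, most of them by little. It used DESeq2 on counts from its own mapping and left out oscillating genes. The reason for the difference in counts was not tested. After SDC-3 degradation 0.814% of all genes rose and 0.455% fell, and 0 of the 10 genes had an unadjusted p under 0.05. Between the TEV TIR1 and TEV controls on auxin, 4.68% of all genes were higher and 9.76% lower with TIR1, with 1 of the 10 genes, *lmn-1*, at an unadjusted p under 0.05.

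None of the methyltransferase genes was called. The *met-2* transcript, for the SETDB1-related enzyme, lay between 39.2 and 58.0 CPM over all samples, and within a batch its highest sample was at most 1.37 times its lowest. Its log2 fold changes lay between -0.08 and 0.14 in the 7 comparisons, and its groups overlapped in each of them. The highest, 0.14 in SDC-3 degradation, was 0.07 ± 0.099 without replicate 3 of the animals without auxin. The *set-25* transcript lay between 8.60 and 14.8 CPM, and its log2 fold changes between -0.24 ± 0.14 (SE) after DPY-26 cleavage with SDC-3 degradation and 0.17 ± 0.15 after KLE-2 cleavage, which was 0.07 ± 0.12 without replicate 3 of that group.

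The *set-32* transcript had the widest differences of the 3 methyltransferase genes and the largest errors. After SCC-1 COH-1 cleavage it had 2.08, 1.66 and 2.79 CPM, against 2.89, 3.51 and 2.77 CPM in the TEV control, so that the highest cleavage sample lay within the control range. Its log2 fold change there was -0.50 ± 0.23, which did not pass the test (adjusted p = 0.165). After DPY-26 cleavage *set-32* had 3.18, 3.84, 3.88 and 2.63 CPM, against 2.83, 2.33, 3.13 and 1.96 CPM in the TEV control. The groups overlapped there too, with a log2 fold change of 0.38 ± 0.19 (adjusted p = 0.156). In SDC-3 degradation the *set-32* value of -0.17 ± 0.30 was -0.42 ± 0.18 (adjusted p = 0.184) without replicate 3 of the animals without auxin.

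Among the genes for proteins that bind the mark, *hpl-1* had the largest change of the 10 genes. After DPY-26 cleavage it had 11.1, 8.55, 10.7 and 9.32 CPM, against 5.85, 5.92, 5.85 and 5.66 CPM in the TEV control. All 4 cleavage samples were above all 4 control samples, and the control samples were close to each other (9.92 ± 1.19 CPM after cleavage and 5.82 ± 0.110 CPM in the control, SD, n = 4 each). The change was 1.68-fold, a log2 fold change of 0.75 ± 0.098 (SE, adjusted p = 0.00116), and was called in all 15 alternative settings, with log2 fold changes of 0.69 to 0.83.

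DPY-26 cleavage with SDC-3 degradation gave *hpl-1* levels of 9.89, 9.71 and 9.81 CPM, against 6.49, 7.14 and 5.97 CPM in the TEV TIR1 control. The 3 double-loss samples were nearly equal and all above the control. The *hpl-1* transcript was 1.497-fold higher, a log2 fold change of 0.58 ± 0.12 (adjusted p = 0.0189). This call was lost without replicate 1, 2 or 3 of the double-loss group (adjusted p = 0.0700, 0.0719 and 0.0671), without replicate 3 of the control (0.0534), and without replicate 1 in either group (0.0581), while the log2 fold change of *hpl-1* stayed between 0.52 and 0.64 in these fits. Against the TEV control on auxin without TIR1, which had 7.5, 8.04 and 6.19 CPM of *hpl-1*, the log2 fold change was 0.44 (adjusted p = 0.0382).

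In the other comparisons with a control *hpl-1* was not called. KLE-2 cleavage gave 7.22, 6.99, 7.46 and 6.43 CPM of *hpl-1*, all above the TEV control of the batch, but the log2 fold change of 0.28 ± 0.12 did not pass the test (adjusted p = 0.315, and 0.158 without replicate 3). SCC-1 cleavage gave 6.40, 5.94, 6.02 and 6.77 CPM of *hpl-1*, a log2 fold change of 0.11 ± 0.078 (adjusted p = 0.337). Its lowest sample was just above the highest control sample, at 5.92 CPM. The level of *hpl-1* was 6.96, 7.03 and 6.296 CPM after COH-1 cleavage and 6.17, 6.57 and 5.36 CPM after SCC-1 COH-1 cleavage, against 6.24, 6.60 and 7.18 CPM in their TEV control. These groups overlapped. SDC-3 degron animals had 5.96, 5.78 and 6.01 CPM of *hpl-1* with auxin, against 6.29, 6.78 and 8.18 CPM without it, a log2 fold change of -0.26 ± 0.16 (adjusted p = 0.391) that was -0.15 ± 0.12 without replicate 3 of the animals without auxin.

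**Figure D3:**
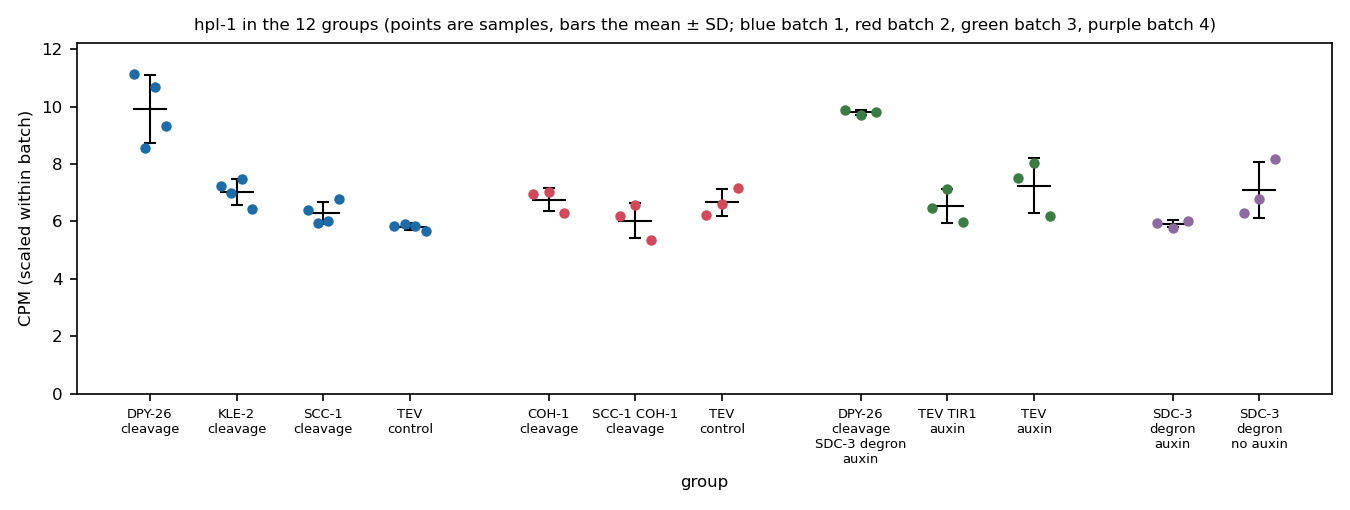
CPM of *hpl-1* in the 12 groups, scaled within each batch, with points for samples coloured by batch and bars for the mean ± SD. The 4 DPY-26 cleavage samples (8.55 to 11.1 CPM) are above every other sample of batch 1. The 3 samples with DPY-26 cleavage and SDC-3 degradation (9.71 to 9.89 CPM) are above every other sample of batch 3.

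Because *hpl-1* lies on X, its values were set beside those of the other X-linked genes. After DPY-26 cleavage the 2224 X-linked genes tested had a median log2 fold change of 0.61 (quartiles 0.39 and 0.83), and 1505 of them, or 67.7%, rose while 11 fell. The *hpl-1* value was above 66.8% of X-linked genes. Genes on autosomes had a median of -0.07. With DPY-26 cleavage and SDC-3 degradation, the median of 2176 X-linked genes was 0.58 (quartiles 0.39 and 0.80), 49.6% of them rose, and *hpl-1* was above 50.5% of them. After SDC-3 degradation alone the X-linked median was 0.14, and *hpl-1* was above 15.8% of X-linked genes. In both comparisons in which *hpl-1* was called, its change lay between the quartiles of the X-linked genes.

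The other HP1 gene, *hpl-2*, is autosomal. After DPY-26 cleavage it had 23.3, 22.4, 22.8 and 22.2 CPM, against 26.3, 26.2, 23.9 and 25.9 CPM in the TEV control. The groups did not overlap, although replicate 3 of the control was close to the cleavage samples. The *hpl-2* transcript was 0.874 times the control level, a log2 fold change of -0.19 ± 0.062 (adjusted p = 0.0465). This call held in 3 of 15 alternative settings only. It was lost when scaling factors came from autosomal genes (-0.11, adjusted p = 0.201), with all groups of the batch in a single fit (adjusted p = 0.520), and without any single sample other than replicate 3 of the TEV control (adjusted p 0.0724 to 0.118, with replicate 1 of the TEV control giving the highest). With DPY-26 cleavage and SDC-3 degradation, *hpl-2* had 29.3, 29.0 and 32.3 CPM, against 34.9, 35.5 and 34.5 CPM in the TEV TIR1 control. These groups did not overlap either, but the log2 fold change of -0.21 ± 0.087 did not pass the test (adjusted p = 0.138).

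Most of the *hpl-2* level was assigned to 3 transcripts, whose shares differed between batches. K01G5.2a.1 held 72.8% to 80.3% of *hpl-2* TPM in batch 1 (median 77.2%), and K01G5.2c.2 held 0% to 10.9% (median 6.51%). In batches 2, 3 and 4 the median share of K01G5.2a.1 was 50.8%, 48.0% and 46.5%, and that of K01G5.2c.2 was 31.5%, 30.0% and 33.7%. K01G5.2b.1 had median shares of 16.1% to 21.1% in the 4 batches. Within batches 2 and 3, replicate 1 of each of the 6 groups had 65.2% to 67.1% on K01G5.2a.1, against 43.1% to 53.2% in the other replicates, whatever the group. The shares of *lin-61* and *emr-1* transcripts followed the batch as well: R06C7.7b.1 had a median of 97.3% of *lin-61* in batch 1 and of 35.2% to 55.0% in the others, and M01D7.6.3 had 99.4% of *emr-1* in batch 1 and 50.7% to 57.3% in the others. Transcripts were therefore summed to genes in each test, and no share was compared across batches.

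**Figure D4:**
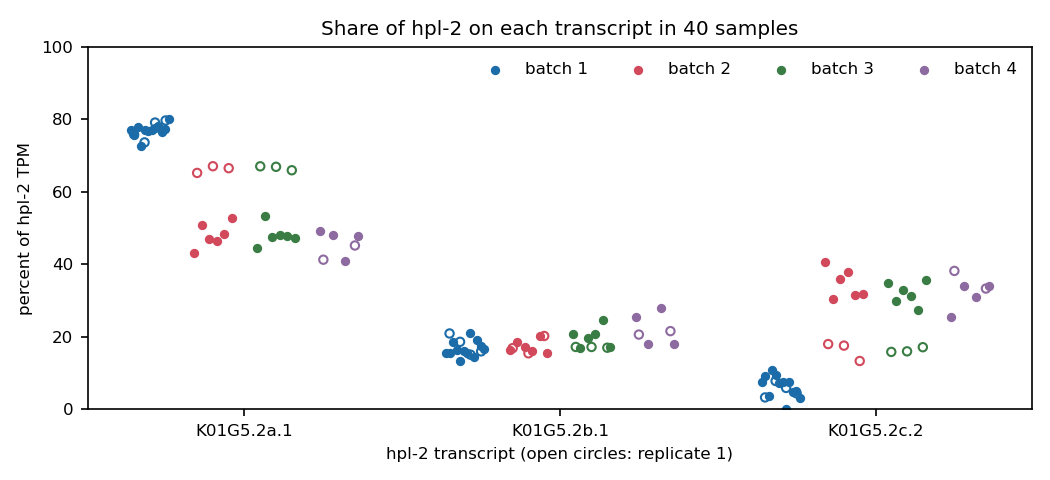
Share of *hpl-2* TPM on its 3 main transcripts in the 40 samples, in percent, coloured by batch, with open circles for replicate 1. In batches 2 and 3 the open circles of K01G5.2a.1 lie at 65.2% to 67.1%, above the filled ones at 43.1% to 53.2%.

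The third reader gene, *lin-61*, had log2 fold changes between -0.21 and 0.21. The value of 0.21 ± 0.27, in SDC-3 degradation, became -0.06 ± 0.086 without replicate 3 of the animals without auxin. The value of -0.21 ± 0.18, in KLE-2 cleavage, became -0.06 ± 0.10 without replicate 3 of that group. With DPY-26 cleavage and SDC-3 degradation *lin-61* had 19.8, 21.8 and 20.7 CPM, against 22.8, 27.6 and 21.4 CPM in the TEV TIR1 control, with a log2 fold change of -0.21 ± 0.12 (adjusted p = 0.276) and groups that overlapped.

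The anchor gene *cec-4* was not called in any comparison. After SCC-1 COH-1 cleavage it had 11.4, 11.6 and 12.7 CPM, against 13.7, 14.3 and 15.2 CPM in the TEV control, with no overlap. The log2 fold change was -0.29 ± 0.11 (adjusted p = 0.103). With DPY-26 cleavage and SDC-3 degradation *cec-4* had 14.1, 11.9 and 14.2 CPM, against 16.6, 15.2 and 16.3 CPM in the TEV TIR1 control, again with no overlap and a log2 fold change of -0.26 ± 0.11 (adjusted p = 0.160). In KLE-2 cleavage the *cec-4* value of -0.30 ± 0.45 rested on replicate 3, and was 0.03 ± 0.075 without it.

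Of the inner membrane and lamina genes, *lem-2* rose after SCC-1 cleavage. It had 42.9, 37.1, 46.4 and 39.8 CPM, against 31.6, 31.6, 29.2 and 33.1 CPM in the TEV control. All 4 cleavage samples were above all 4 controls, a 1.32-fold difference (log2 fold change 0.40 ± 0.080, adjusted p = 0.00585). The call of *lem-2* held in 14 of 15 alternative settings and was lost with all groups of the batch in a single fit (adjusted p = 0.112). It was called in that fit once replicate 3 of KLE-2 cleavage was left out. After SCC-1 COH-1 cleavage *lem-2* had 38.4, 36.9 and 33.3 CPM, against 33.1, 29.2 and 30.6 CPM in the TEV control of batch 2. Its lowest cleavage sample was just above the highest control sample, and the log2 fold change of 0.22 ± 0.099 did not pass the test (adjusted p = 0.165). COH-1 cleavage alone gave 30.2, 30.9 and 24.6 CPM of *lem-2*, within or below the control range, and DPY-26 cleavage gave 29.6, 26.6, 27.4 and 32.3 CPM. In KLE-2 cleavage the log2 fold change of *lem-2*, 0.42 ± 0.20 (adjusted p = 0.377), was 0.16 ± 0.078 (adjusted p = 0.274) without replicate 3.

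The emerin gene *emr-1* fell after SCC-1 COH-1 cleavage, with 22.6, 22.3 and 24.6 CPM, against 29.9, 31.5 and 30.3 CPM in the TEV control. The groups did not overlap, and *emr-1* was at 0.751 times its control level (log2 fold change -0.41 ± 0.090, adjusted p = 0.0229). The call held in 8 of 13 alternative settings. It was lost without replicate 1, 2 or 3 of the cleavage group (adjusted p = 0.0902, 0.0822 and 0.0646), without replicate 1 of the control (0.0501) and without replicate 1 in either group (0.129), while the log2 fold change of *emr-1* stayed between -0.46 and -0.39. COH-1 cleavage alone gave 20.9, 25.7 and 25.5 CPM of *emr-1*, all below the control, and a log2 fold change of -0.35 ± 0.12 that did not pass the test (adjusted p = 0.702). With the replicate number as a block, which pairs these samples, it was -0.35 ± 0.090 (adjusted p = 0.228), and 9 genes in all were called in place of 1. SCC-1 cleavage gave 22.9, 23.3, 27.1 and 25.2 CPM of *emr-1*, against 29.1, 29.3, 24.99 and 28.5 CPM, with overlap and a log2 fold change of -0.18 ± 0.079 (adjusted p = 0.117). The *emr-1* values of 0.09 ± 0.19 in KLE-2 cleavage and -0.25 ± 0.28 in SDC-3 degradation changed sign, to -0.14 ± 0.096 and 0.13 ± 0.15, without the library of each that stood apart.

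The lamin gene *lmn-1* was at the threshold in SCC-1 COH-1 cleavage, with 307, 286 and 278 CPM, against 222, 245 and 210 CPM in the TEV control. All 3 cleavage samples were above all 3 controls. The log2 fold change was 0.35 ± 0.10 (adjusted p = 0.0506), and *lmn-1* was called in 5 of 13 alternative settings, among them DESeq2 (adjusted p = 0.0243) and the replicate number as a block (0.0381), as well as without replicate 2 of the control (0.0320). COH-1 cleavage alone gave 254.5, 239.9 and 207.5 CPM of *lmn-1*, from above to below the range of the control. SCC-1 cleavage alone gave 207, 198, 230.5 and 212 CPM, against 203, 202.5, 188 and 195 CPM in its control, a log2 fold change of 0.10 ± 0.064. With TIR1 on auxin *lmn-1* had 250.4, 269 and 268 CPM, against 220.1, 216 and 224 CPM without TIR1, a log2 fold change of 0.28 ± 0.11 (adjusted p = 0.156).

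**Figure D5:**
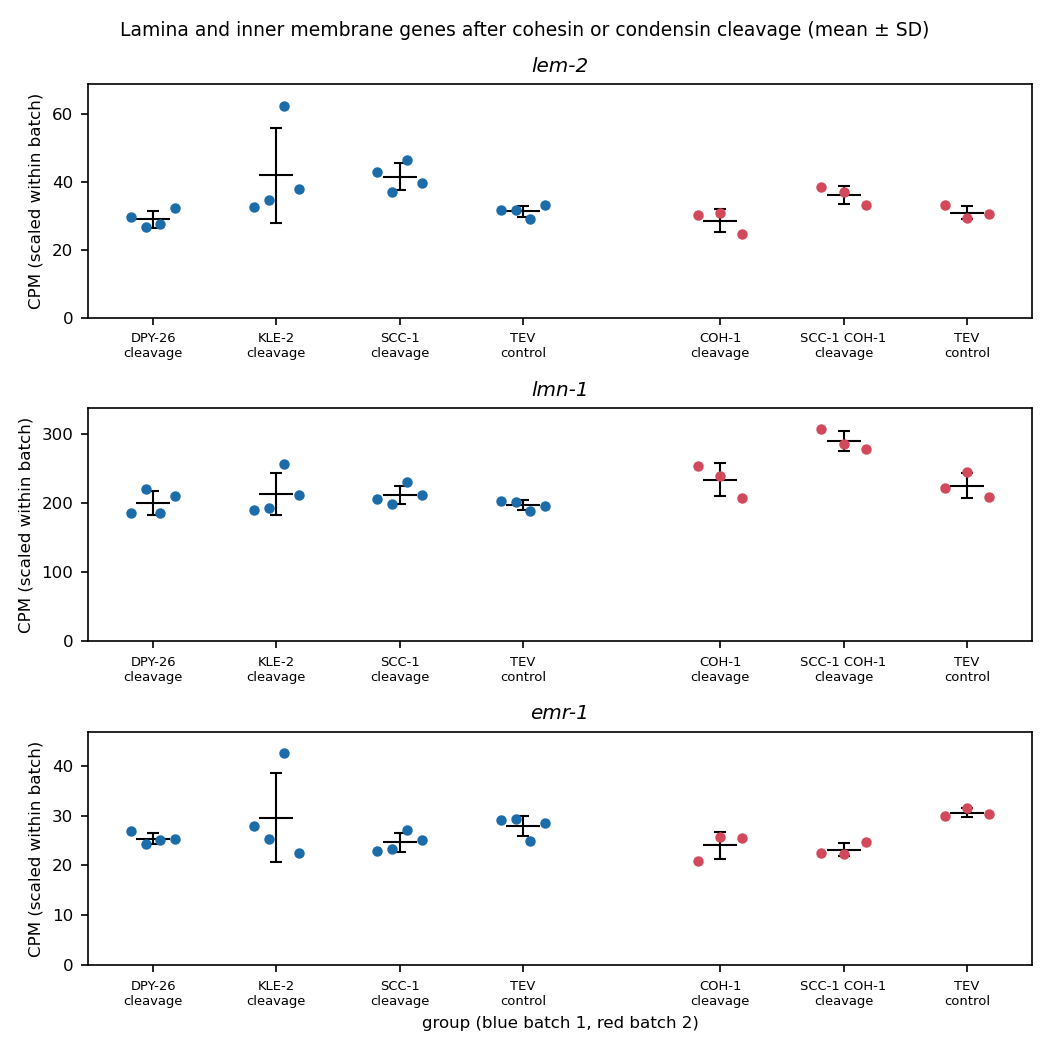
CPM of *lem-2*, *lmn-1* and *emr-1* in the groups of batches 1 and 2, with points for samples and bars for the mean ± SD. SCC-1 cleavage samples of *lem-2* (37.1 to 46.4 CPM) lie above their TEV control, and SCC-1 COH-1 cleavage samples lie above it for *lmn-1* (278 to 307 CPM) and below it for *emr-1* (22.3 to 24.6 CPM).

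Markers of cell types and of cell division moved with several groups. Their sums are in TPM, in which replicate 1 of each group in batches 2 and 3 differed from the other replicates. The ranges of sums in those batches include that difference, while counts and log2 fold changes come from the fits. In SCC-1 COH-1 cleavage, where 11% of all genes fell, 12 of 20 germline markers and 16 of 20 cell division genes fell. Their median log2 fold changes were -0.70 and -0.56. Summed germline markers were 94.6 to 150 TPM (median 109.9), against 124.9 to 224.4 TPM (median 155.9) in the TEV control. Summed cell division genes were 259.6 to 375.6 TPM (median 261), against 319.8 to 508.1 TPM (median 334.5). Summed muscle markers were 4425 to 5353 TPM, against 3427 to 4588 TPM, with 1 of 5 higher. Summed neuron markers were 400.5 to 537 TPM, against 249.7 to 399 TPM, with 1 of 5 higher. Summed pharynx markers were 295.7 to 400.7 TPM, against 179 to 228.2 TPM, although 2 of 5 rose and 1 fell. The epidermis markers had a median log2 fold change of -0.30, with 1 of 5 higher. Of all genes 10.3% rose. In COH-1 cleavage 0 of 20 germline markers and 0 of 20 cell division genes were called, where 1 of all genes was. Their median log2 fold changes were -0.27 and -0.175, with 0% and 5% of the genes above 0. In SCC-1 cleavage 7 of 20 cell division genes fell (median -0.20), with sums of 283.4 to 368.5 TPM, against 339.5 to 384.3 TPM. The 2 of 20 germline markers that fell were near the share of all genes that fell, 14.6%. Summed epidermis markers did not overlap there, at 171.1 to 253.3 TPM, against 108.2 to 139.9 TPM, although 1 of 5 rose and 1 fell. Summed muscle markers were 2620 to 3234 TPM after SCC-1 cleavage, against 2350 to 2629 TPM. In DPY-26 cleavage 6 of 20 cell division genes fell (median -0.20), as did 3 of 5 muscle markers (median -0.37), 2 of 5 intestine markers and 2 of 20 germline markers. The share of all genes that fell was 11.9%, which the germline count was near. Summed muscle markers were 1888 to 2360 TPM there, against 2350 to 2629 TPM in the TEV control. With DPY-26 cleavage and SDC-3 degradation the median of the muscle markers was -0.15, with 0 of 5 called. There 1 of 20 cell division genes fell (median 0.08), near the share of all genes that fell, 3.46%. Of the intestine, epidermis and pharynx markers 1 of 5 each rose, where 11.2% of all genes rose. After SDC-3 degradation 1 of 20 cell division genes fell (median -0.62), where 0.455% of all genes fell. Their sums were 234.1 to 317.4 TPM, against 356 to 433.3 TPM without auxin. Summed epidermis markers were 152.9 to 270.5 TPM, against 348.2 to 482.8 TPM, with 0 of 5 called. With TIR1 on auxin 4 of 20 cell division genes (median -0.24) and 2 of 5 epidermis markers were lower, where 9.76% of all genes were. No gene of these lists was at 0 in any group. The part of these shifts in the values of *hpl-1*, *hpl-2*, *lem-2*, *emr-1* and *lmn-1* was not tested.

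Direct comparisons within a batch tested whether conditions differed from each other. Between DPY-26 and KLE-2 cleavage 5.15% of all genes were higher and 1.73% lower after DPY-26 cleavage, and 0 of the 10 genes were called by edgeR, with 2 at an unadjusted p under 0.05, and 1, *hpl-1*, by DESeq2. The *hpl-1* difference was 0.47 ± 0.15 on the log2 scale (adjusted p = 0.0928), and 0.52 ± 0.12 (adjusted p = 0.0368) without replicate 3 of KLE-2 cleavage. The difference of *lem-2* was -0.57 ± 0.23 (adjusted p = 0.161), and -0.29 ± 0.096 (adjusted p = 0.0899) without that replicate. Between SCC-1 and KLE-2 cleavage 0% of all genes were higher and 0% lower with edgeR (830 at an unadjusted p under 0.05, and 37 higher and 91 lower with DESeq2). Of the 10 genes 0 had an unadjusted p under 0.05 there, and the *lem-2* difference was -0.01 ± 0.21. Without replicate 3 of KLE-2 cleavage *lem-2* was at 0.24 ± 0.099 (adjusted p = 0.924).

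Between SCC-1 COH-1 and COH-1 cleavage 4.41% of all genes were higher and 5.8% lower after the double cleavage. Of the 10 genes 0 were called by edgeR or DESeq2, and 2 had an unadjusted p under 0.05. These were *lem-2*, at 0.32 ± 0.12 (adjusted p = 0.123), and *lmn-1*, at 0.29 ± 0.11 (adjusted p = 0.138). With the replicate number as a block, which pairs these samples, *lem-2* was at 0.33 ± 0.082 (adjusted p = 0.0523) and *lmn-1* at 0.30 ± 0.089 (adjusted p = 0.0820). The *emr-1* difference between SCC-1 COH-1 and COH-1 cleavage was -0.07 ± 0.12 (adjusted p = 0.749).

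The 10 genes were also set beside other genes of the same processes. Of 24 other genes of H3K9 methylation and its readers, 22 were tested after DPY-26 cleavage. Of these 4 rose and 4 fell, where 15.5% of all genes rose and 11.9% fell. Their median was -0.07, against -0.01 over all genes. Like *hpl-1*, the X-linked genes of the lists rose, 4 of 4: *set-6*, for a SET-domain protein, had 17.1 ± 0.448 CPM, against 10.5 ± 0.987 CPM (SD, n = 4 each, log2 fold change 0.69, adjusted p = 0.000856), *lsd-1*, for a demethylase homolog, 0.48 (adjusted p = 0.0334), *nrde-3*, for a nuclear RNAi Argonaute, 0.37 (adjusted p = 0.0360, named after its values were seen), and *unc-84*, for a SUN protein of the envelope, 0.63 (adjusted p = 0.00159). The call of *lsd-1* held in 9 of 15 alternative settings (adjusted p up to 0.0897). Of all X-linked genes tested 67.7% rose. The autosomal *nrde-2*, for a nuclear RNAi factor, fell by 0.46 (adjusted p = 0.00387). Of 16 other envelope and lamina genes 1 rose and 5 fell (median -0.15). Among them *ooc-5*, for a torsin, fell by 0.64 (adjusted p = 0.00151) and *zyg-12*, for a KASH protein, by 0.45 (adjusted p = 0.0205). With scaling factors from autosomal genes 4 H3K9 genes rose and 1 fell (median 0.00), and 1 envelope gene rose and 2 fell (median -0.07), against 0.07 over all genes. Of all 14340 genes, 2575 rose and 790 fell with these factors.

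Nucleoporin genes fell after DPY-26 cleavage, 13 of 24 tested with 0 higher and a median of -0.26, where 11.9% of all genes fell. In these samples the lamina gene *lmn-1* was at 0.00. With scaling factors from autosomal genes 2 fell, *npp-12* and *npp-1*, and the median was -0.18, against 0.07 over all genes. Of the 3 with the smallest p, *npp-12* had 126 ± 12.3 CPM, against 170.4 ± 9.99 CPM (SD, n = 4 each, log2 fold change -0.45, adjusted p = 0.00589), and *npp-1* and *npp-14* fell by 0.35 and 0.26 (adjusted p = 0.0120 and 0.0142). With DPY-26 cleavage and SDC-3 degradation, where 11.2% of all genes rose and 3.46% fell, 0 of 24 nucleoporin genes were called by edgeR or DESeq2. In edgeR 2 of them had an unadjusted p under 0.05, and their median log2 fold change was -0.14. The sign of this median depended on the control, since against the TEV control on auxin without TIR1 it was 0.07. There 1 nucleoporin gene was higher and 1 lower, beside 2255 and 2050 of all 13901 genes tested. Between the TEV TIR1 and TEV controls on auxin the nucleoporin median was 0.24, with 95.8% of the 24 genes above 0. In DPY-26 cleavage with SDC-3 degradation, against the TEV TIR1 control, *set-6* rose by 0.59 (adjusted p = 0.0249). The other X-linked genes of the lists, *lsd-1*, *nrde-3* and *unc-84*, were not called in this comparison, where 49.6% of X-linked genes rose. There *nrde-2*, *cec-8*, for a chromodomain protein, and *ooc-5* fell by 0.37, 0.67 and 0.61 (adjusted p = 0.0218, 0.0242 and 0.00678). Against the TEV control on auxin without TIR1, *nrde-2* was at -0.08 (adjusted p = 0.648) and *cec-8* at 0.16 (adjusted p = 0.540). The calls of *nrde-2*, *cec-8* and *set-6* held in 8, 8 and 9 of 14 alternative settings, and that of *ooc-5* in 14.

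After SCC-1 cleavage, where 14.4% of all genes rose and 14.6% fell, 2 of 22 other H3K9 genes rose and 1 fell (median 0.04, against 0.02 over all genes). These were *set-23*, for a SET-domain protein, at 0.48 (adjusted p = 0.0253), *nrde-1*, for a nuclear RNAi factor, at 0.28 (adjusted p = 0.0317), and the chromodomain gene *cec-5*, which fell by 0.24 (adjusted p = 0.0133). Of 15 alternative settings, *set-23* was called in 8 (adjusted p up to 0.0640), *nrde-1* in 6 (adjusted p up to 0.199) and *cec-5* in 14. Of the envelope genes *vrk-1*, for a kinase of the DNA-binding protein BAF, rose by 0.25 (adjusted p = 0.0111), beside *lem-2*, and the KASH genes *zyg-12* and *unc-83* fell by 0.54 and 0.40 (adjusted p = 0.00400 and 0.0112). The nucleoporin gene *npp-20* fell by 0.20 (adjusted p = 0.0259). After SCC-1 COH-1 cleavage 10.3% of all genes rose and 11% fell. There *nrde-1* and *lpin-1*, for lipin, rose by 0.46 and 0.60 (adjusted p = 0.0317 and 0.0379). The germline genes *hrde-1*, for a nuclear Argonaute, and *sun-1*, for a SUN protein, fell by 0.56 and 0.85 (adjusted p = 0.0142 and 0.0188), as did the nucleoporin genes *npp-22* and *npp-7*, by 0.53 and 0.32 (adjusted p = 0.0206 and 0.0466). Of 13 alternative settings, the call of *hrde-1* held in 10, of *sun-1* in 9, of *npp-22* in 8, of *nrde-1* and *lpin-1* in 7 each and of *npp-7* in 4. Without replicate 1 in either group 0 of the 62 genes of the 3 lists were called after SCC-1 COH-1 cleavage, with 12 at an unadjusted p under 0.05. In KLE-2 cleavage, COH-1 cleavage and SDC-3 degradation edgeR called 0 of the 62 genes, with 2, 1 and 5 at an unadjusted p under 0.05, and DESeq2 called 0, 0 and 2. Without replicate 3 of the animals without auxin, edgeR called 2 of the 62 after SDC-3 degradation, *baf-1* higher and *zyg-12* lower (named after their values were seen), with 8 at an unadjusted p under 0.05. In that fit 626 of all 13536 genes were higher and 607 lower.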

How the data were processed

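RNA-seq of 40 samples of entire L3 larvae was analysed, grouped by the sample labels. The authors deposited Salmon estimated counts of reads per transcript, not scaled for depth, and TPM, scaled by effective length and library total, for 82 sequencing runs. The submitters' processing notes name cutadapt 2.5, Salmon 1.5.2 and STAR 2.7.9a without their roles, and the annotation behind these values is not given in the sources used here.

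Runs of a sample were summed for counts and averaged for TPM. Gene values are sums over the transcripts that Ensembl release 115 (WBcel235) assigns to a gene, rounded to whole reads (41 of 42938 transcripts matched no gene, with at most 0.0128% of reads). A gene needed 10 or more reads in 0.5 or more of the samples of a comparison, and was then tested with edgeR 4.0.16 in R 4.3.3 (TMM, quasi-likelihood test, Benjamini-Hochberg adjustment over all genes tested, called at an adjusted p under 0.05), each comparison in its own fit without a replicate term. CPM were scaled with TMM factors within a batch. Genes that oscillate during larval development, which the study's methods leave out, were kept.

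Alternatives were DESeq2 1.42.0, RLE normalization, TMM factors from autosomal genes, no filter, the replicate number as a block, all groups of a batch in a single fit, each sample left out in turn, and the TEV control on auxin as reference for the double loss. The common fit without KLE-2 cleavage replicate 3, and fits without replicate 1 in either group, were added after seeing the data. Other steps used Python 3.11.15, numpy 2.4.6, pandas 2.3.3 and matplotlib 3.10.9, and the tests were checked on simulated counts. Replicate numbers, from the labels, were taken to pair samples where, in every pair, what set the 2 samples off from their groups correlated above 0.1 across genes. This held for COH-1 cleavage (0.444, 0.586 and 0.511) and for SCC-1 COH-1 against COH-1 cleavage (0.419, 0.252 and 0.193).

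The 10 genes and the lists of other genes were chosen with earlier results of these data known. Named besides the 10 were the targeted genes, at most 3 called genes with the smallest p of each list in each comparison, and the 3 genes most like each of the 2 genes with the largest called changes. Of 25 nucleoporin symbols, 24 were found in the annotation.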

Additional observations from a re-analysis of the deposited data

Results flagged for a closer look

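In 40 groups of 4 samples (the 10 genes in the 4 groups of batch 1), a sample was marked where its gap to the nearest other sample, divided by the range of the group, was above Dixon's critical value. Chance marks about 1 in 20 groups, and 2 were marked. The *cec-4* level of KLE-2 cleavage replicate 3 was 2.36 CPM, against 12.8 to 14.7 CPM in the other replicates. The *hpl-2* level of TEV control batch 1 replicate 3 was 23.9 CPM, against 25.9 to 26.3 CPM in the others.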

How the results depend on the processing

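No value changed from called in one direction to called in the other. When 1 sample was left out, 61 of 760 log2 fold changes of the 10 genes changed sign, and under the other alternatives 36 of 760 did. None of these was called, and the largest was 0.30 in size. After DPY-26 cleavage 2 of the 10 genes were called, but 1 under RLE normalization, TMM factors from autosomal genes, no filter, the replicate block and all groups in a single fit, and 1 to 2 with a sample left out. After SCC-1 cleavage the count was 1, and 0 with all groups in a single fit. After SCC-1 COH-1 cleavage it was 1, but 2 with DESeq2, autosomal factors, the replicate block and a single fit, 0 to 2 with a sample left out, and 0 without replicate 1 in either group. For DPY-26 cleavage with SDC-3 degradation it was 1, but 0 to 1 with a sample left out and 0 without replicate 1 in either group. Between DPY-26 and KLE-2 cleavage it was 0, but 1 with DESeq2, 2 in a single fit, 0 to 1 with a sample left out and 3 in a single fit without KLE-2 cleavage replicate 3. The cause of these changes was not tested.

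The number of all genes called depended more on the setting. DPY-26 cleavage called 3938 genes (2188 in a single fit, 2333 to 4396 with a sample left out), and SCC-1 cleavage called 4176 (2595 in a single fit). KLE-2 cleavage called 168 (1003 with DESeq2, 30 with the replicate block, 629 in a single fit, 860 there without its replicate 3, 0 to 332 with a sample left out). COH-1 cleavage called 1 (120 with DESeq2, 9 with the block, 21 in a single fit, 0 with a sample left out or without replicate 1 in either group). SCC-1 COH-1 cleavage called 2995 (890 without its replicate 3, 1347 without its replicate 2, 1982 without replicate 1 of its control, 0 without replicate 1 in either group). SDC-3 degradation called 173 (1589 with DESeq2, 261 with no filter, 977 with the block, 0 to 1233 with a sample left out). The double loss called 2053 (3953 with the block, 4305 against the TEV control on auxin, 842 to 2015 with a sample left out), and TIR1 under auxin 1999 (1215 to 2108 with a sample left out). DPY-26 against KLE-2 cleavage called 984 (2346 with DESeq2, 540 with the block, 3139 in a single fit, 3748 there without KLE-2 cleavage replicate 3, 10 to 1910 with a sample left out). SCC-1 against KLE-2 cleavage called 0 (128 with DESeq2, 3 in a single fit, 2 there without KLE-2 cleavage replicate 3). SCC-1 COH-1 against COH-1 cleavage called 1434 (599 without replicate 1 in either group, 31 to 2437 with a sample left out). In the comparisons other than COH-1 cleavage and SCC-1 COH-1 against COH-1 cleavage, at least 1 pair of same-numbered samples correlated at 0.1 or less, so that the numbers were not taken to pair them, although in SCC-1 COH-1 cleavage both groups are paired by number with COH-1 cleavage. The block ended the call of *hpl-2* after DPY-26 cleavage (adjusted p = 0.0924), added *lmn-1* after SCC-1 COH-1 cleavage (adjusted p = 0.0381) and changed no other call of the 10 genes.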

Other observations

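Among 13326 genes tested in all 7 comparisons, the genes whose log2 fold changes were most like those of *hpl-1* were *asp-3*, *snx-1* and *chil-10*, all on X. Their root mean square differences from *hpl-1* over the 7 comparisons were 0.0859, 0.0873 and 0.0913 on the log2 scale, against a median of 0.513 over all genes. Their log2 fold changes were 0.69, 0.79 and 0.69 after DPY-26 cleavage, and 0.70, 0.61 and 0.50 after DPY-26 cleavage with SDC-3 degradation, beside 0.75 and 0.58 for *hpl-1*. The genes most like *emr-1* were *eif-6* on chromosome I, *tomm-20* on V and *K09E4.3* on II, with root mean square differences of 0.0550, 0.0696 and 0.0708, against a median of 0.410. Their log2 fold changes were -0.37, -0.42 and -0.39 after SCC-1 COH-1 cleavage, beside -0.41 for *emr-1*. The comparisons of a batch share control samples, so these values describe likeness only.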
